A study of Danio rerio with 6 samples.

Results

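The 10 genes described here, mt-nd1 (ENSDARG00000063895), mt-nd2 (ENSDARG00000063899), mt-co1 (ENSDARG00000063905), mt-co2 (ENSDARG00000063908), mt-atp6 (ENSDARG00000063911), mt-co3 (ENSDARG00000063912), mt-nd4 (ENSDARG00000063917), mt-nd5 (ENSDARG00000063921), mt-nd6 (ENSDARG00000063922) and mt-cyb (ENSDARG00000063924), are encoded by the mitochondrial genome of the zebrafish and specify subunits of the respiratory chain and of ATP synthase. They were selected by their Ensembl identifiers, and they are 10 of 31901 identifiers counted. The rule names them by identity and uses no measured value, but earlier results of these data were known when they were chosen. All 10 passed the filter on low counts, and their symbols in the reference name table matched the names given for them. RNA was sequenced from regenerating caudal fins of zebrafish carrying the shha:eGFP transgene at 96 hours post amputation. All 6 samples carried this reporter, whose fluorescence marked where the regenerate was cut into a distal and a proximal piece, and no amputated fin without it and no uninjured fin is among them. There were 3 distal and 3 proximal samples, numbered 2, 3 and 4 in both regions, and each pooled tissue from 4 fins. The question of the study's design is which genes differ between the distal and the proximal regenerate.

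Mitochondria keep a small circular genome of their own. It encodes 13 proteins, all of them core subunits of oxidative phosphorylation, while the remaining subunits are encoded in the nucleus and imported. Complex I (NADH dehydrogenase) takes electrons from NADH, complex III (the cytochrome bc1 complex) passes them to cytochrome c, complex IV (cytochrome c oxidase) hands them to oxygen, and complex V (ATP synthase) uses the resulting proton gradient to make ATP. In vertebrates the genome is transcribed as long transcripts that are cut into single messengers, mostly at the transfer RNAs that lie between the genes, so the level of each messenger depends on processing and decay as well as on transcription. The messengers carry short poly(A) tails, and in human cells that of ND6 lacks one. Libraries made for polyadenylated messenger RNA, as those here, therefore measure what such a preparation captures. The RefSeq table orders the protein genes on the zebrafish mitochondrial genome as ND1, ND2, COX1, COX2, ATP8, ATP6, COX3, ND3, ND4L, ND4, ND5, ND6 and CYTB. In vertebrates ND6 is the protein gene read from the other strand.

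Gene-assigned reads numbered between 20113859 and 23629159 per library. SHH (ENSDARG00000068567), the Hedgehog ligand of the reporter, was at 17.7 ± 3.26 CPM (counts scaled to the same total of gene-assigned reads per library) in distal and 5.95 ± 0.707 CPM in proximal libraries (mean ± SD over 3 libraries). The fitted log2 difference between regions was 1.45, with SE 0.17 and an edgeR adjusted p of 0.000627. Among 11 tested genes listed for a check of the regions, 7 rose and 3 fell in distal relative to proximal tissue. The gene sost, listed there as proximal, was among those higher in distal tissue. The libraries numbered 4 stood apart from the others in both regions. After the mean of each region was removed, deviations of a library numbered 4 from one region correlated with those of libraries numbered 2 or 3 from the other at between -0.38 and -0.52, compared with 0.10 and 0.12 between libraries numbered 2 and 3. Their points are genes, which do not vary independently. Deviations within a region cancel out, so the negative values partly follow from the positive ones between same-numbered libraries.

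Together the 10 genes took a similar part of the reads in both regions. Their summed counts made up 2.28% (95% Wilson interval 2.27 to 2.29), 2.45% (2.44 to 2.45) and 2.43% (2.42 to 2.44) of gene-assigned reads in distal libraries 2, 3 and 4. The proximal libraries held 2.59% (2.59 to 2.60), 2.59% (2.58 to 2.60) and 2.40% (2.40 to 2.41). The regions overlapped, since the proximal library numbered 4 lay below the distal libraries numbered 3 and 4. The means were 2.38 ± 0.0917% in distal and 2.53 ± 0.110% in proximal tissue (SD, n = 3 each), and the ratio of distal to proximal was -0.084 on the log2 scale. Within the same-numbered pairs this log2 ratio was -0.19, -0.083 and 0.016 for numbers 2, 3 and 4, so it was below 0 in 2 of 3 pairs. With library sizes scaled by TMM, the trimmed-mean method of edgeR, which lowers distal relative to proximal values, the log2 ratio of the means was -0.20. No test is given for a sum over genes chosen together. The intervals cover counting error only, which was far smaller than the spread between libraries.

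**Figure D1:**
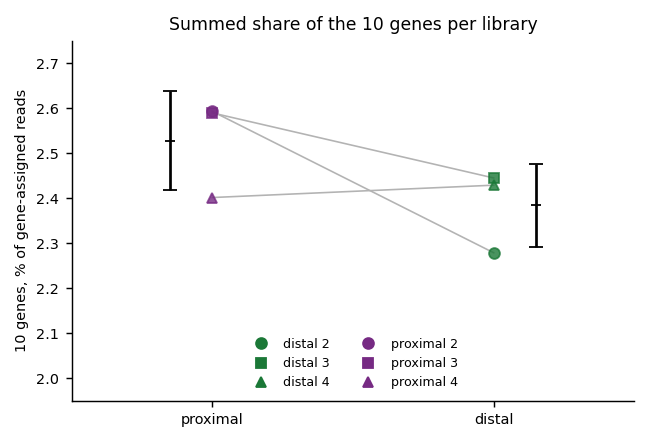
Summed share of the 10 mitochondrially encoded genes in each library, in percent of gene-assigned reads, on an axis that does not start at 0. Points are libraries, grey lines join libraries with the same number, and bars give mean ± SD of 3 libraries. The distal libraries lie between 2.28% and 2.45% and the proximal between 2.40% and 2.59%.

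Gene by gene, 2 of the 10 were lower in distal tissue and none was higher (edgeR quasi-likelihood test, Benjamini-Hochberg adjusted p under 0.05 over 18455 genes). They were mt-cyb, with a log2 fold change of -0.48, and mt-nd1, with -0.37. Over all genes tested, 14.4% were called lower and 15.3% higher in distal tissue, 29.7% in all, so 2 of 10 lower is near the background. At an unadjusted p under 0.05 the counts were also 2 lower and 0 higher, where 20.9% of all genes were lower and 20.5% higher. DESeq2 and limma-voom each gave 2 lower and 0 higher. The 10 fold changes were all below 0, as were those of 9471 of the 18455 genes tested. The median of the 10 was -0.16, compared with a median of -0.015 over all genes tested. Those fold changes rest on TMM scaling, while the CPM printed here use the sum of the gene counts. For mt-nd2, mt-co1, mt-nd5 and mt-nd6 the mean CPM was higher in distal tissue although the fold change was below 0. With library size alone, the median over all genes moved by 0.12 to 0.11, that of the 10 genes became -0.044, the fold changes of mt-nd2, mt-co1, mt-nd5 and mt-nd6 turned positive, and mt-cyb was the gene still called. The split of all calls moved with it, from 2817 higher and 2661 lower to 3640 higher (19.7%) and 1924 lower (10.4%). In bulk tissue, fewer cells of a type with much of a messenger and less messenger per cell cannot be told apart.

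The numbers in the titles paired the libraries, as set out with the processing, and with the replicate number as a block 4 of the 10 genes were lower in distal tissue and none higher. The additional genes were mt-co2 and mt-atp6. Over all genes the same fit called 25.1% lower and 23.3% higher. Without both libraries numbered 4, 2 of the 10 were called lower, mt-cyb and mt-co2, and none higher, while 13.9% of all genes were lower and 14.5% higher. Without both libraries numbered 2, or both numbered 3, 0 of the 10 were called in either direction by edgeR, and 5.35% and 6.68% of all genes were lower. Without distal library 2, 3 or 4 alone the counts were 1, 1 and 2, with 10.1%, 9.46% and 13.2% of all genes lower. Without proximal library 2, 3 or 4 alone they were 1, 2 and 2, with 9.96%, 12.2% and 12.2% of all genes lower. Under the alternatives that changed the tool, the filter or the scaling other than to library size, the count stayed at 2. The background there was 14.4% lower with DESeq2 size factors, 14.4% with scaling without mitochondrially encoded genes, 9.63% with no filter beyond 1 count, 16.1% with a filter at a mean of 50 counts, 13.3% with DESeq2 and 14.3% with limma-voom.

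**Figure D2:**
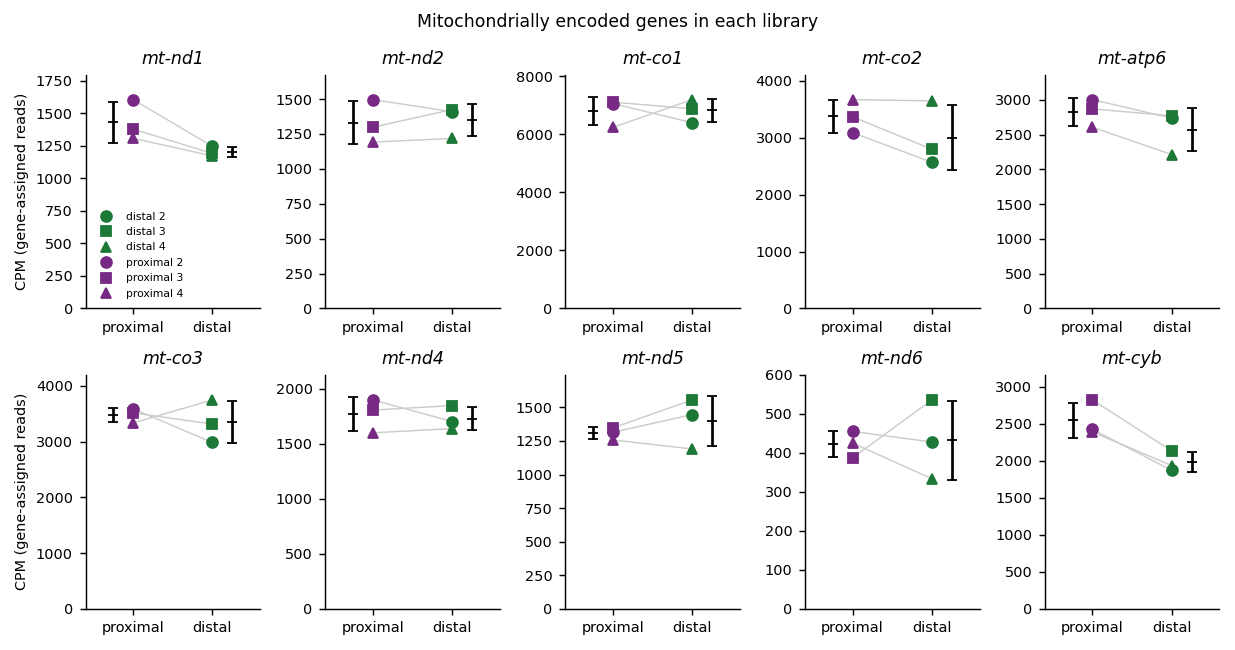
CPM of each of the 10 genes in proximal and distal libraries, with a separate axis from 0 for each gene. Points are libraries, grey lines join libraries with the same number, and bars give mean ± SD of 3 libraries. For mt-nd1 and mt-cyb every distal library lies below every proximal library, as for 16.4% of all tested genes. The regions overlap for the other genes on this scale.

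Of the 5 complex I genes, mt-nd1 passed the threshold and the others did not, while all 5 fold changes were below 0 under TMM scaling with overlapping intervals. Differences between these genes were not tested. mt-nd1 encodes a membrane subunit next to the quinone-binding site of the complex. Its level was 1245, 1190.0 and 1171 CPM in distal libraries 2, 3 and 4, and 1604, 1377 and 1306 CPM in proximal libraries 2, 3 and 4. All distal libraries lay below all proximal ones, which held for 16.4% of tested genes on this scale, and the distal libraries were close to each other while proximal library 2 stood highest. The log2 fold change was -0.37 (SE 0.11; 95% interval -0.61 to -0.13; edgeR adjusted p = 0.0311), and -0.37 with adjusted p = 0.00526 under the replicate block. The call did not hold without distal library 2, 3 or 4 (adjusted p = 0.0643, 0.104 and 0.0704) or without proximal library 2 (0.0982). It held without proximal library 3 or 4 (0.0450 and 0.0399), was lost without any number in both regions (0.0548 to 0.168), and was lost with library size alone (0.104).

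mt-nd2 encodes another membrane subunit, of the proton-pumping arm. It stood at 1409, 1425 and 1218 CPM in distal and 1496, 1299 and 1192 CPM in proximal libraries 2, 3 and 4. The libraries numbered 4 were the lowest of both regions, and the regions overlapped. The log2 fold change was -0.097 (95% interval -0.36 to 0.16; edgeR adjusted p = 0.561).

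mt-nd4 and mt-nd5 also belong to the proton-pumping arm and lie near each other on the genome. mt-nd4 was at 1701, 1846 and 1636 CPM in distal and 1897, 1805 and 1599 CPM in proximal libraries 2, 3 and 4, with a log2 fold change of -0.15 (95% interval -0.37 to 0.067; edgeR adjusted p = 0.267). Its regions overlapped in CPM, with library 4 the lowest in each. With TMM-scaled library sizes every distal library of mt-nd4 lay below every proximal one, and no share over all genes is given for that scale. mt-nd5 was at 1447, 1556 and 1191 CPM in distal and 1314, 1347 and 1258 CPM in proximal libraries, with a log2 fold change of -0.024 (95% interval -0.28 to 0.23; edgeR adjusted p = 0.896). For mt-nd5 the distal libraries 2 and 3 were above every proximal library and distal library 4 was below them all. Without both libraries numbered 4 its log2 fold change was 0.075, still far from the threshold.

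mt-nd6, the membrane subunit encoded on the opposite strand, had the lowest counts of the 10 genes and a wide spread in distal tissue. It was at 428, 536 and 333 CPM in distal and 455, 387 and 425 CPM in proximal libraries 2, 3 and 4. Distal library 3 was the highest and distal library 4 the lowest of the 6, so the proximal libraries fell within the distal range. Its log2 fold change was -0.093 (95% interval -0.47 to 0.29; edgeR adjusted p = 0.714). The library kit marks strand, but the strand setting of the counting is not given in the sources used here, so reads of mt-nd6 and of the opposite strand may not have been kept apart.

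mt-cyb encodes cytochrome b, the mitochondrially encoded subunit of complex III, and it had the smallest adjusted p of the 10 genes. Its level was 1869, 2132 and 1934 CPM in distal libraries 2, 3 and 4, and 2423, 2821 and 2388 CPM in proximal libraries 2, 3 and 4. Every distal library was below every proximal library, which held for 16.4% of tested genes on this scale. Library 3 was the highest in both regions. The means were 1978 ± 137 CPM in distal and 2544 ± 240.4 CPM in proximal tissue (SD, n = 3 each). The log2 fold change was -0.48 (SE 0.10; 95% interval -0.71 to -0.26; edgeR adjusted p = 0.00735), and within pairs 2, 3 and 4 the log2 ratio of CPM was -0.37, -0.40 and -0.30. The fold change uses TMM scaling and the ratios of CPM do not. With library size alone the fold change was -0.36. The call held with each single library left out (adjusted p = 0.0163 to 0.0351), without both libraries numbered 4 (0.0188) and with library size alone (0.0333). It missed the threshold without both libraries numbered 2 (0.0809) or 3 (0.0722), at a log2 fold change of -0.49 and -0.46.

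The 3 complex IV genes encode the catalytic core of cytochrome c oxidase. mt-co1, whose product binds the haem and copper centre where oxygen is reduced, was at 6400.4, 6881 and 7196 CPM in distal and 7059.8, 7107 and 6236 CPM in proximal libraries 2, 3 and 4. Library 4 was the highest in distal and the lowest in proximal tissue, and the regions overlapped. Its log2 fold change was -0.11 (95% interval -0.34 to 0.11; edgeR adjusted p = 0.428).

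mt-co2, whose product receives electrons from cytochrome c, was at 2569, 2798 and 3648 CPM in distal and 3090.4, 3368 and 3671 CPM in proximal libraries 2, 3 and 4. Library 4 was the highest in each region, and distal library 4 nearly reached the level of its proximal partner. The log2 fold change was -0.29 (95% interval -0.65 to 0.072; edgeR adjusted p = 0.204). With the replicate block it was -0.30 with adjusted p = 0.0247, without distal library 4 it was -0.46 with adjusted p = 0.0358, and without both libraries numbered 4 it was -0.37 with adjusted p = 0.0451. mt-co3, the third core subunit, was at 2986, 3316 and 3750.2 CPM in distal and 3588, 3517 and 3335 CPM in proximal libraries, with a log2 fold change of -0.17 (95% interval -0.43 to 0.082; edgeR adjusted p = 0.277). Its distal library 4 was the highest of all 6 and its distal library 2 the lowest.

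mt-atp6 encodes the subunit of ATP synthase that forms the proton channel with the rotating ring. It was at 2736, 2771 and 2213 CPM in distal and 3003, 2869 and 2606 CPM in proximal libraries 2, 3 and 4. Library 4 was lowest in both regions, and each distal library was below its same-numbered proximal library, while the regions overlapped through proximal library 4. With TMM-scaled library sizes the regions did not overlap, and no share over all genes is given for that scale. The log2 fold change was -0.26 (95% interval -0.52 to 0.0051; edgeR adjusted p = 0.127), and -0.26 with adjusted p = 0.0461 under the replicate block.

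**Figure D3:**
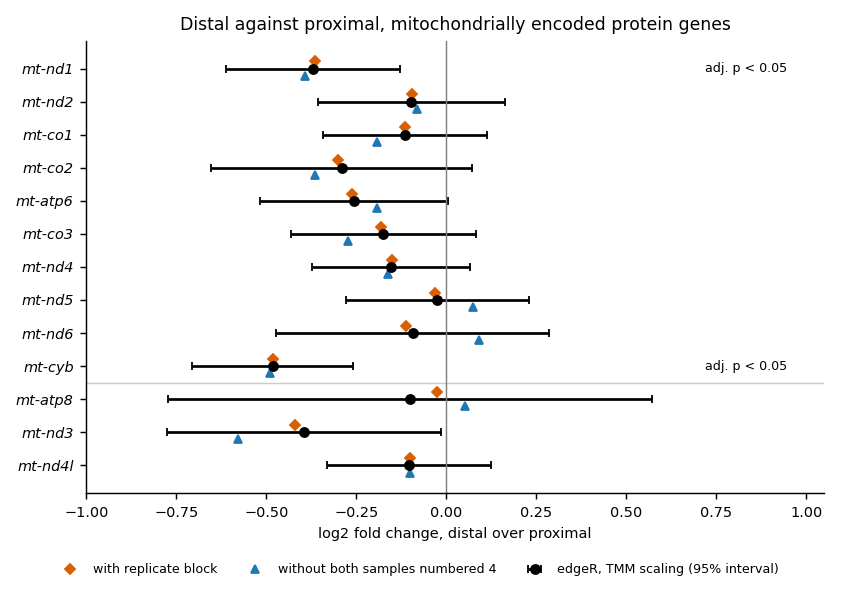
Log2 fold change of distal over proximal tissue for the 10 genes and, below the line, for mt-atp8, mt-nd3 and mt-nd4l. Black points with bars are edgeR estimates under TMM scaling with 95% intervals, orange diamonds the fit with the replicate block, and blue triangles the fit without both libraries numbered 4. Among the 10 genes, the intervals of mt-nd1 and mt-cyb end below 0 and those of the other 8 include 0.

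The 3 other mitochondrially encoded protein genes, which are not among the 10, gave no call in the fit of all 6 libraries without the block. mt-nd3, of complex I, was at 154, 170.3 and 237 CPM in distal and 212, 239.9 and 228 CPM in proximal libraries 2, 3 and 4. Distal libraries 2 and 3 were below all others, and distal library 4 was within the proximal range. Its log2 fold change was -0.39 (edgeR adjusted p = 0.109), and it was called with the block (-0.42, adjusted p = 0.00456) and without both libraries numbered 4 (-0.58, adjusted p = 0.00628). mt-nd4l, of complex I, had a log2 fold change of -0.10 (95% interval -0.33 to 0.12; edgeR adjusted p = 0.473). mt-atp8, of ATP synthase, ranged from 61.9 to 79.1 CPM in distal and from 37.9 to 90.2 CPM in proximal libraries, with proximal library 2 the lowest of the 6. Its log2 fold change was -0.10 with an interval from -0.77 to 0.57 (edgeR adjusted p = 0.832). The ATP8 and ATP6 reading frames overlap in vertebrates, as do those of ND4L and ND4, so reads there may not have been assigned to either gene, and the counting mode is not given in the sources used here.

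The relative amounts of the 10 messengers can be read without any choice of library size, as each gene's share of the summed reads of the 10. The share of mt-cyb was 8.20%, 8.72% and 7.96% in distal libraries 2, 3 and 4 against 9.34%, 10.9% and 9.94% in the proximal ones, with no overlap. mt-co1 took 28.1%, 28.1% and 29.6% in distal and 27.2%, 27.4% and 26.0% in proximal libraries, also with no overlap but in the other direction. For the other 8 genes the regions overlapped. No background over other genes was computed for this measure, so no result is read from the lack of overlap. Shares sum to a whole, so a lower share of one gene raises the rest. Of the 45 ratios between pairs of the 10 genes, 10 did not overlap between regions. Over all pairs of tested genes with reads in every library, 46.8% of ratios did not overlap, so the count among the 10 genes is below that background and no result is read from it. Of the 10 ratios, 5 were among the 9 of mt-cyb, lower in distal tissue relative to mt-nd2, mt-co1, mt-co3, mt-nd4 and mt-nd5. Another 3 were among the 9 of mt-nd1, lower in distal tissue relative to mt-nd2, mt-nd4 and mt-nd5. Beside the 46.8% of all pairs, neither count is read as a result about these genes. The ratio of mt-cyb to mt-nd5 reads was 1.29, 1.37 and 1.62 in distal and 1.84, 2.09 and 1.90 in proximal libraries 2, 3 and 4. These ratios are a description and were not tested.

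Ranked by share of the reads of the 10 genes, the libraries numbered 4 held the same place in both regions for 5 of the 10 genes. No background over other genes is given for this count, so no result is read from it. mt-co2 held 11.3%, 11.4% and 15.02% of the reads of the 10 genes in distal libraries 2, 3 and 4, and 11.9%, 13.005% and 15.3% in proximal libraries, so library 4 was the highest in both regions. The share of mt-co3 was also highest, and those of mt-nd2, mt-atp6 and mt-nd4 lowest, in library 4 of both regions. For the other 5 genes the places differed: mt-co1 was highest in distal and lowest in proximal library 4, mt-nd5 and mt-nd6 were the reverse, and mt-nd1 and mt-cyb were lowest in distal and in the middle in proximal library 4. Distal library 4 departed furthest. There the complex IV genes together held 60.1% of the reads of the 10 genes, compared with 52.5% to 55.1% in the other 5 libraries, and the complex I genes held 22.8%, compared with 24.0% to 27.3%. On the TMM-scaled log2 CPM scale, the means of the numbers differed by up to 0.41 for mt-co2, and the regions by 0.30. For mt-cyb these differences were 0.16 and 0.48. Over the 6 libraries, Pearson correlations of log2 CPM between the 10 genes ranged from -0.53 for mt-co3 and mt-nd5 to 0.92 for mt-co1 and mt-co3. They share library and scaling and are given as a description.

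**Figure D4:**
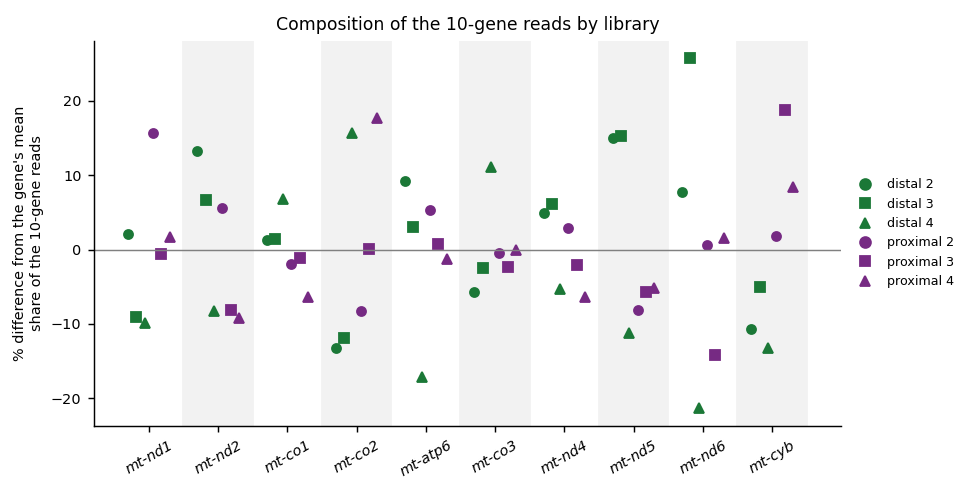
Share of each gene in the summed reads of the 10 genes, as the percent difference from the mean of that gene's share over the 6 libraries. Colours give the region and symbols the library number, with distal libraries on the left of each column. The 3 distal points of mt-cyb lie below its 3 proximal points, and the triangles of mt-co2, for libraries numbered 4, lie highest in both regions.

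The nuclear genes for the same machinery were compared through lists chosen by symbol. Of 94 nuclear genes listed for complexes I to V and matched to identifiers, 86 were tested, 23 were lower in distal tissue and 0 higher in the edgeR test. The complex V list also holds genes for an inhibitor of ATP synthase, which is not a subunit. Of these, atp5if1b was among the 23 (log2 fold change -0.66; edgeR adjusted p = 0.0116). Under TMM scaling, fold changes below 0 were found for 83 of the 86, and for 9471 of all 18455 genes tested. The median of the 86 was -0.29, compared with -0.16 for the 10 mitochondrially encoded genes and -0.015 for all genes tested. The share called lower was 26.7%, against 14.4% of all genes. At an unadjusted p under 0.05, 38 were lower and 0 higher, where 20.9% of all genes were lower. DESeq2 and limma-voom each gave 23 and 0, where 13.3% and 14.3% of all genes were lower. With the replicate block 49 were lower and 0 higher, which is 57.0% lower, against 25.1% of all genes in that fit. Without both libraries numbered 4 the numbers were 30 and 0, where 13.9% of all genes were lower. With library size alone 10 were lower and 0 higher, which is 11.6%, near the 10.4% of all genes lower in that fit. There 0 of 35 complex I genes, 0 of 5 complex II genes, 2 of 9 complex III genes, 3 of 18 complex IV genes and 5 of 19 complex V genes were called lower. The summed level of the 94 genes was 5099.6, 5399 and 5962 CPM in distal and 6669, 6056 and 6312 CPM in proximal libraries 2, 3 and 4, with no overlap. No background was computed for such a sum, so no result is read from the lack of overlap. No test of the difference between the nuclear and the mitochondrial genes was made.

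By complex, the listed nuclear genes called lower in distal tissue were 4 of 35 (11.4%) for complex I and 2 of 5 (40%) for complex II. They were 5 of 9 (55.6%) for complex III, 4 of 18 (22.2%) for complex IV and 8 of 19 (42.1%) for complex V. In the fit without the block, the share for complex I was below the 14.4% of all genes called lower. With the replicate block the shares were 42.9%, 80%, 55.6%, 61.1% and 73.7% for complexes I to V, against 25.1% of all genes. Without both libraries numbered 4, 6 of 35 complex I genes were lower, where 13.9% of all genes were lower. The median log2 fold changes of the 5 lists lay between -0.25 and -0.35. For complex I, ndufs3, a subunit of the peripheral arm, was at 29.7 ± 2.04 CPM in distal and 36.1 ± 1.84 CPM in proximal tissue (mean ± SD, n = 3 each; log2 fold change -0.40; edgeR adjusted p = 0.0195). For complex III, which mt-cyb completes, uqcr10 was at 40.1 ± 3.17 and 54.6 ± 7.70 CPM (log2 fold change -0.56; edgeR adjusted p = 0.00745). For complex IV, cox6b1, a subunit facing the intermembrane space, was at 22.9 ± 1.44 and 37.9 ± 3.85 CPM (log2 fold change -0.85; edgeR adjusted p = 0.00131). For complex V, atp5f1b, the catalytic beta subunit, was at 444 ± 21.4 and 595 ± 13.2 CPM (log2 fold change -0.54; edgeR adjusted p = 0.00303). For complex II, which has no mitochondrially encoded subunit, sdhb had a log2 fold change of -0.48 (edgeR adjusted p = 0.0232).

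**Figure D5:**
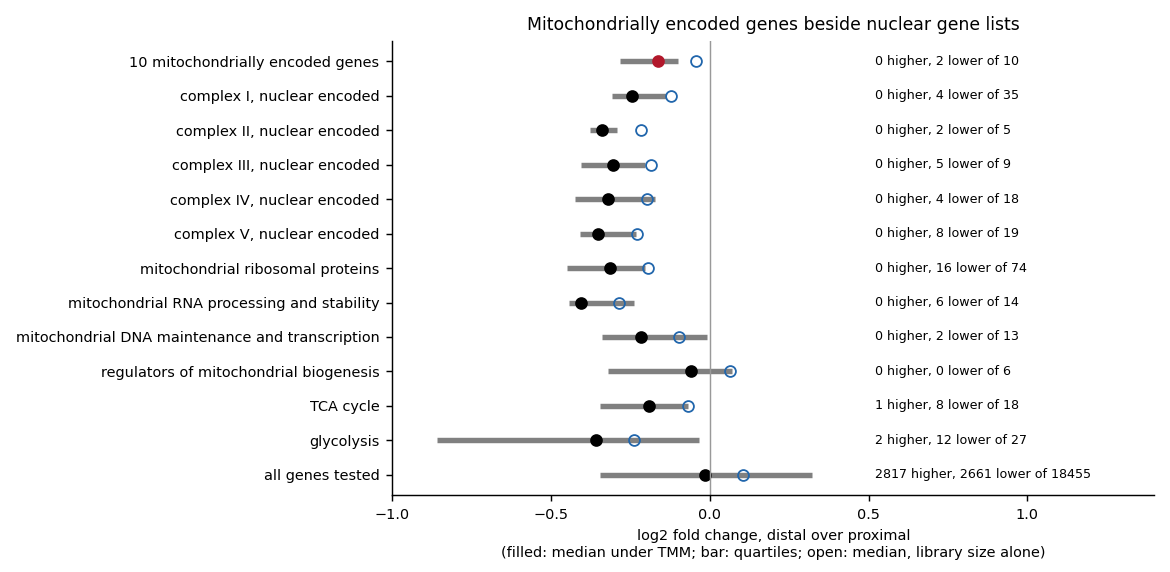
Median log2 fold change of distal over proximal tissue for the 10 mitochondrially encoded genes and for nuclear gene lists. Filled points are medians and bars quartiles under TMM scaling, open points are medians with library size alone, and the numbers at the right count genes past an edgeR adjusted p of 0.05. The medians of the nuclear lists for complexes I to V lie between -0.25 and -0.35, and that of the 10 genes is -0.16.

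Among genes that copy and transcribe the mitochondrial genome 10 of 13 fold changes were below 0, and among those that process its RNA 13 of 14. Over all genes tested 9471 of 18455 were below 0, and these counts rest on TMM scaling. With library size alone the medians of the 2 lists moved from -0.22 to -0.098 and from -0.41 to -0.29. Of 13 tested genes for DNA maintenance and transcription, 2 were lower in distal tissue (15.4%, near the 14.4% of all genes) and 0 higher. They were twnk, the mitochondrial DNA helicase (log2 fold change -0.87; edgeR adjusted p = 0.00951), and tfb2m, a transcription initiation factor (-0.59; edgeR adjusted p = 0.00838). The mitochondrial RNA polymerase polrmt and the packaging and transcription factor tfam had log2 fold changes of -0.010 and 0.079 (edgeR adjusted p = 0.960 and 0.613). Of 14 genes for RNA processing and stability, 6 were lower and 0 higher, 9 and 0 with the block, and 4 and 0 without both libraries numbered 4 or with DESeq2. Of all genes, 25.1% were lower with the block, 13.9% without both libraries numbered 4 and 13.3% with DESeq2. The share of the 14 called lower in the fit without the block was 42.9%, against 14.4% of all genes. With library size alone it was 21.4%, or 3 genes, against 10.4%. Among the 6 were hsd17b10, part of the RNase P that cuts out transfer RNAs (-0.88; edgeR adjusted p = 0.000720), supv3l1, a helicase of RNA decay (-0.64; edgeR adjusted p = 0.00656), and mtpap, the mitochondrial poly(A) polymerase (-0.54; edgeR adjusted p = 0.0176, and 0.0682 without both libraries numbered 4). lrpprc, which stabilises mitochondrial messengers in mammals, had a log2 fold change of -0.41 (edgeR adjusted p = 0.117, and 0.000779 with the block). Of 6 tested regulators of mitochondrial biogenesis, 0 passed the threshold in the edgeR test or with limma-voom, 1 was lower with DESeq2, and 2 were lower both at an unadjusted p under 0.05 and with the replicate block. Of all genes, 13.3% were lower with DESeq2, 20.9% at the unadjusted p and 25.1% with the block.

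The 5 nuclear genes whose log2 CPM followed the mean of the 10 genes most closely over the 6 libraries were slc1a2, rmi1, si:busm1-57f23.1, lpin1 and elp4, with Pearson correlations of 0.995 to 0.997. They were picked as the highest among all tested genes with a symbol, and no test is given. The log2 CPM were TMM-scaled. On that scale the mean of the 10 genes was 10.78 to 10.87 in distal and 10.99 to 11.08 in proximal libraries. The pick therefore favours genes lower in distal tissue, whatever the size of their change. slc1a2 rests on 12 to 23 reads per library. The largest in level, si:busm1-57f23.1, was at 52.2, 65.5 and 51.1 CPM in distal and 126, 98.0 and 105 CPM in proximal libraries 2, 3 and 4. Its log2 fold change was -1.09, compared with a median of -0.16 for the 10 genes.

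Other measures were compared between the regions beside mt-cyb and mt-nd1, and not all of them differed. Of all genes tested, 14.4% were called lower and 15.3% higher in distal tissue. Among 9 tested epidermal markers, 1 was higher and 5 lower in distal tissue. The 1 higher was and3 (log2 fold change 5.09; edgeR adjusted p = 0.000114). Its namesake and2 was listed as distal in the check of the regions, so and3 may not mark epidermis alone. The summed level of the matched epidermal markers was 21647.5 to 22133 CPM in distal and 44465 to 48904 CPM in proximal libraries. Most of that sum was krt5 alone, at 14816 to 15085 CPM in distal and 35652 to 39604 CPM in proximal libraries. Markers of fibroblasts and blastema went the other way, with 5 of 10 higher and 1 lower and sums of 3105 to 4076 against 2178 to 2524 CPM. Much of those sums was tnc (ENSDARG00000021948) and col5a1, which went in opposite directions. tnc was at 1149 to 1812 against 105 to 258 CPM, and col5a1, the 1 lower, at 1132 to 1441 against 1732 to 1848 CPM. For endothelium 3 of 5 were lower, with sums of 119.9 to 143 against 208 to 268 CPM. For pigment cells 6 of 8 were lower and 2 higher, with sums of 22.5 to 31.3 against 72.1 to 101 CPM. For osteoblasts 3 of 7 were lower, with sums of 2929 to 3637 against 4826 to 7134 CPM. Most of those sums was col10a1 (ENSDARG00000054753) alone, at 2597 to 3127 against 3656.5 to 5208 CPM. For leukocytes 3 of 5 were lower, with sums of 749.7 to 849.8 against 831 to 914 CPM. Of 8 matched markers of skeletal muscle 1 was tested and higher in distal tissue, with sums of 14.0 to 22.4 against 4.49 to 7.36 CPM. Erythrocyte markers had sums of 24.0 to 506 against 18.2 to 214 CPM and none of 5 was called. For ionocytes none of 4 was called, with sums of 268 to 338 against 349 to 491 CPM. For nerve and glia 1 of 3 was higher and 1 lower, with sums of 4.43 to 5.26 against 5.49 to 6.49 CPM. No marker of these lists was at 0 in all 6 libraries. Reads in no annotated gene made up 14.1% to 14.6% of uniquely aligned reads in distal and 10.8% to 12.6% in proximal libraries. Alignments that were not unique, which the gene counts leave out, made up 32.3% to 38.9% of the listed total in distal libraries. In proximal libraries they made up 30.2% to 35.3%. Of 9 immediate early and heat shock genes, 2 were higher in distal tissue, with sums of 713 to 919 against 509.8 to 675 CPM. The part of these in the results for mt-cyb and mt-nd1 was not tested.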

How the data were processed

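The authors deposited 1 file per library with unnormalised read counts for each Ensembl gene. Reads were aligned with TopHat2 and counted with HTSeq on build GRCz11, per the submitters' processing notes. RNA was extracted with TRIzol and libraries were made with a Kapa stranded mRNA-Seq kit, per the labels' protocols. Versions of these tools, the gene annotation and how strand was treated in counting are not given in the sources used here. A line with an empty identifier equalled the sum of the gene counts and was left out, as were the category lines. Of the 31901 identifiers, 29178 had a symbol in the reference name table, matched without regard to case. Genes named without a or b there may be paralogs, and 16 of 235 listed symbols had no match.

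CPM used the sum of the gene counts, and 3 counts corresponded to 0.127 to 0.149 CPM. The regions were compared with the edgeR 4.0.16 quasi-likelihood test in R 4.3.3 with filterByExpr (minimum 10 counts), TMM scaling, all 6 libraries and without blocking. Benjamini-Hochberg adjustment covered 18455 genes, with a threshold of 0.05. The standard error was the absolute log2 fold change divided by the square root of F. Log2 CPM, used for correlations and for differences between numbers, had a prior count of 2 and TMM-scaled library sizes, unlike the CPM printed. Same-numbered libraries were taken as pairs because their deviations from the region means correlated at 0.42, 0.56 and 0.68 over genes. The labels do not say whether they came from the same fins, and p-values measure the spread between these pools. The code was tested on simulated data. Alternatives were other scalings and filters, limma-voom (limma 3.58.1), DESeq2 1.42.0, a block on the replicate number, and fits with libraries left out.

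The 10 genes and the gene lists were chosen with earlier results of these data known. The rule for named genes took the 10 genes, the other mitochondrially encoded protein genes and the 5 nuclear genes correlating best with the mean log2 CPM of the 10. It also took from each list up to 3 genes per direction with the largest fold change past the threshold, of which some are printed. Genes named that missed it (polrmt, tfam, lrpprc) and SHH and sost were chosen after their values were seen.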

Additional observations from a re-analysis of the deposited data

How the results depend on the processing

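The count of the 10 genes lower in distal tissue, 2 under the reported test, was 1 with library size alone and 4 with the replicate block, and lay between 0 and 2 when libraries or numbers were left out. It stayed at 2 with DESeq2 size factors, scaling without the mitochondrially encoded genes, both other filters, DESeq2 and limma-voom, and the count higher in distal tissue was 0 in all 17 alternatives. Over all genes the calls numbered 5478, and 8939 with the replicate block, where the numbers pair the libraries, and 2231 to 5242 with libraries left out. The block changed no call of the 10 genes other than those of mt-co2 and mt-atp6. The log2 ratio of the summed share, -0.084, became -0.20 with TMM-scaled library sizes and -0.13 over uniquely aligned reads. It lay between -0.13 and -0.034 with libraries left out. With library size alone the log2 fold changes turned to 0.023 for mt-nd2, 0.0052 for mt-co1, 0.098 for mt-nd5 and 0.033 for mt-nd6. With libraries left out they ranged from -0.15 to 0.0004 for mt-nd2, from -0.091 to 0.075 for mt-nd5 and from -0.33 to 0.091 for mt-nd6, and none of these passed the threshold. The cause was not tested. With 3 libraries per region, the 95% intervals of the 8 genes not called still span changes of up to -0.65 on the log2 scale.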

Other observations

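Other mitochondrial and metabolic gene lists gave these values in the edgeR test. Of 74 mitochondrial ribosomal protein genes, which serve the translation of the 13 mitochondrial messengers, 16 were lower in distal tissue and 0 higher, with a median log2 fold change of -0.32 (25th to 75th percentile -0.45 to -0.21). The share lower was 21.6%, against 14.4% of all genes. With the replicate block 39 were lower, which is 52.7%, against 25.1% of all genes. With library size alone 8 were lower, which is 10.8%, near the 10.4% of all genes lower in that fit. The most lowered was mrpl43, with a log2 fold change of -0.63 (edgeR adjusted p = 0.0205). Of 18 tested genes of the TCA cycle, 8 were lower (44.4%) and 1 higher, where 14.4% of all genes were lower and 15.3% higher. pdhb, a subunit of pyruvate dehydrogenase, had a log2 fold change of -0.55 (edgeR adjusted p = 0.00244), and ogdh (ENSDARG00000103428), a subunit of the oxoglutarate dehydrogenase complex, had 0.52 (edgeR adjusted p = 0.0214, and 0.0779 without both libraries numbered 4). The TCA genes lower in distal tissue numbered 4 with library size alone (22.2%, against 10.4% of all genes). They also numbered 4 without both libraries numbered 4, where 13.9% of all genes were lower.

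Glycolysis genes spread more widely, with 12 of 27 lower (44.4%) and 2 higher in distal tissue. Of all genes, 14.4% were lower and 15.3% higher. With library size alone 9 glycolysis genes were lower (33.3%) and 3 higher, against 10.4% and 19.7% of all genes. The enolase gene eno2, 1 of the 2 higher, was at 30.1 CPM in distal and 0.881 CPM in proximal tissue (means, n = 3 each), a log2 difference of 4.97 with SE 0.21 and an edgeR adjusted p of 5.27e-06. Of the 12 lower, the largest changes were in gapdh (-3.96; edgeR adjusted p = 0.000571), eno1 (ENSDARG00000013750; -1.82; 0.00124) and pfkl (ENSDARG00000099755; -1.22; 0.00128). gapdh and eno1 were low, with proximal means of 0.973 and 3.07 CPM. Among 14 tested genes of mitochondrial stress responses, 3 were higher and 6 lower (42.9%). With library size alone 3 were higher and 4 lower (28.6%), against 10.4% of all genes lower. Of the transcription factors there, atf5a was higher (0.61; edgeR adjusted p = 0.0103) and atf5b lower (-0.65; edgeR adjusted p = 0.00282), and the kinase-like regulator trib3 was higher (0.70; edgeR adjusted p = 0.00338). Of the chaperone and protease genes listed, clpx (ENSDARG00000029063) was higher (0.35; edgeR adjusted p = 0.0197, and 0.0586 without both libraries numbered 4) and lonp1 lower (-0.60; edgeR adjusted p = 0.00960). Values of the other chaperone and protease genes are not given here. asns was lower as well (-0.55; edgeR adjusted p = 0.0254).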
